A study of Mus musculus with 2 samples.

Results

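The peaks described here are Foxf2-FLAG binding regions near gene starts whose own central sequence is of low GC content. They were chosen by 2 properties of their position and sequence: a peak centre within 1 kb of the transcription start site (TSS) of a protein-coding transcript, and a GC content below 60% in the central 200 bp. No binding value was used to choose them. The list of all peaks held 9165 regions, of which 2357 were promoter peaks, and 497 of these promoter peaks were GC-poor (21.1%, 95% Wilson interval 19.5 to 22.8). The other 1860 promoter peaks are called GC-rich below, and the 6808 peaks over 1 kb from a TSS are called distal.

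The data were 1 anti-FLAG ChIP library and 1 input library (sonicated chromatin without antibody) from mouse palatal shelves at E13.5, 50 pairs pooled. The embryos of both libraries were homozygous for a 3xFLAG tag added by CRISPR/Cas9 to the endogenous Foxf2 gene (Foxf2FLAG/FLAG), so Foxf2 was expressed from its own locus. Neither library had a replicate, no library from untagged embryos was analysed here, and peaks of 1 library pair are not replicates of each other. The ChIP library held 26849463 tags, the input depth that follows from the deposited folds was about 19230000 tags, and the list gives no RNA values with which to check the tissue.

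Foxf2 is a forkhead transcription factor of the mesenchyme under the oral epithelium, and mice without it have a cleft palate. Forkhead proteins bind DNA through a winged-helix domain, most often at short AT-rich words built around TAAA. Most mammalian promoters of widely used genes lie in CpG islands, which are rich in G and C and seldom hold such an AT-rich word, whereas many promoters of tissue-restricted genes lack an island.

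Forkhead sites are shown first for 7 of the highest-scoring GC-poor promoter peaks that held one outside annotated exons. The score is the peak caller's, and its order is not that of tag numbers or folds. Mmp2 and Frzb, which have roles in matrix turnover and Wnt signalling, are shown with them. A forkhead site here is any match, on either strand, to RTAAAYA in the central 200 bp, where R stands for either purine and Y for either pyrimidine, which gives 4 words. A peak without a site by this measure can still hold a match farther from its centre. Each stretch is mm9 sequence, 5′ to 3′, on the strand that reads the site forwards, and capitals mark the matches. Tcfap4 encodes the helix-loop-helix factor AP-4, and its stretch is chr16:4559830-4559890 (plus strand), with the site 140 bp upstream of the TSS. The clone gene 4930455F23Rik had its site 862 bp upstream (chr1:166204824-166204884, minus). Lhx8 encodes a LIM homeodomain factor needed for palate formation (chr3:153994164-153994224, minus). Its stretch holds 2 matches, 579 bp and 598 bp upstream of the TSS. Ambn encodes the enamel matrix protein ameloblastin (chr5:88884815-88884875, plus), with the site 191 bp upstream. The sites of Bcas3 (chr11:85166255-85166315, plus) and of the tetraspanin gene Tspan4 (chr7:148662468-148662528, minus) lay 384 bp upstream and 199 bp downstream. Taf4a encodes a subunit of the general factor TFIID (chr2:179711933-179711993, minus), with the site 612 bp upstream. Mmp2 encodes a gelatinase of the extracellular matrix (chr8:95351754-95351814, plus), with the site 557 bp downstream, and Frzb a secreted Wnt antagonist (chr2:80288357-80288417, plus), with the site 605 bp upstream. GTAAACA was the word in 5 of these 9 stretches.
Tcfap4: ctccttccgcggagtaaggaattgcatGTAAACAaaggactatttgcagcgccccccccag
4930455F23Rik: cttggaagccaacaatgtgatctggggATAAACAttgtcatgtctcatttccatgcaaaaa
Lhx8: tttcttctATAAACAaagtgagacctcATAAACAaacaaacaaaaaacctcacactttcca
Ambn: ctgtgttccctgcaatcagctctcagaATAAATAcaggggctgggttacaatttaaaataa
Bcas3: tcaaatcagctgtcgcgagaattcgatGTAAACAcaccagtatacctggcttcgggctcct
Tspan4: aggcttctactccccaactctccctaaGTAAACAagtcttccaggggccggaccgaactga
Taf4a: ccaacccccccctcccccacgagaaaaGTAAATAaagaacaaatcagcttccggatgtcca
Mmp2: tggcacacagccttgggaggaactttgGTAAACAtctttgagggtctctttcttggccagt
Frzb: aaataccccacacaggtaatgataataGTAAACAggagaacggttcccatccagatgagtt

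A different kind of match came from simple repeats. The peak upstream of Rnf7, a RING subunit gene of cullin ubiquitin ligases, held 11 overlapping ATAAATA matches, more than any other GC-poor promoter peak, in a run of ATAA units (chr9:96379412-96379488, minus strand). Its tag number was low, 23 ChIP tags against 1 input tag. The peak at an internal start of Vgll4, which encodes a cofactor of TEAD proteins, had 85 ChIP tags against 4 input tags and held both kinds of match. Its central 200 bp had 3 overlapping ATAAATA words and, beyond a run of A, 1 GTAAACA 17 bp from the peak centre (chr6:114872244-114872337, minus strand). Another GTAAACA lay 187 bp from the centre.
Rnf7: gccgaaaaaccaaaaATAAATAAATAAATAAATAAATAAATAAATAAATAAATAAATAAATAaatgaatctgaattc
Vgll4: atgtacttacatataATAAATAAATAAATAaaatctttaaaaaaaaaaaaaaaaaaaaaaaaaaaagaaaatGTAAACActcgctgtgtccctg

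Of the 7 GC-poor promoter peaks with at least 4 matches in the central 200 bp, 4 had every such match 4 bp from another match. The 6 central matches in the peak near Cd300e were a tandem repeat of another kind, with ATAAACA every 15 bp.

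Forkhead sites were present at the centres of 147 of the 497 GC-poor promoter peaks (29.6%, 25.7 to 33.7), whereas 40.8% of all 9165 peaks held one. Their own flanks, windows of equal width 2000 bp upstream of the centre on the plus strand, held one in 17.3% of cases (14.2 to 20.9). The ratio was 1.71 (exact McNemar test, 122 peaks with a site at the centre only against 61 at the flank only, adjusted p = 4.85e-05). GTAAACA was 3.35 times as frequent at centres as in flanks, with 57 peaks (11.5%) against 17 (3.42%, exact McNemar test, adjusted p = 3.23e-05). The share of all peaks with GTAAACA was 15.3%. ATAAACA (42 peaks against 26, adjusted p = 0.177), ATAAATA (38 against 30, adjusted p = 0.760) and GTAAATA (24 against 23, adjusted p = 1) did not pass the exact McNemar test. The forkhead word read backwards (AYAAATR), a control of base composition that shares ATAAATA with the site itself, was at 14.7% of centres and 17.1% of flanks (ratio 0.859, exact McNemar test, adjusted p = 0.760).

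Of 19 motifs tested on both strands, 4 were more frequent at centres than in flanks (21.1% of those tested). These were the 2 forkhead patterns above, which share GTAAACA, the SP/KLF box GGGCGG and the ETS core CCGGAA. SP and KLF proteins are zinc finger factors of GC-rich promoters, and GGGCGG was at 82 centres against 22 flanks (16.5% against 4.43%, exact McNemar test, adjusted p = 8.45e-09). It was at 64.9% of GC-rich promoter centres and 5.19% of distal centres. CCGGAA, bound by ETS factors, was at 48 centres against 19 flanks (exact McNemar test, adjusted p = 0.00126). No motif was less frequent at centres (0% of those tested) at the adjusted threshold of 0.05 in the exact McNemar test, and 1 was at an unadjusted p under 0.05. That one was the TATA box TATAAA, at 51 centres against 79 flanks (exact McNemar test, unadjusted p = 0.0134, adjusted p = 0.0508). The mean GC fraction was 0.499 at centres and 0.449 in flanks, so centres and flanks were not compared at equal base composition.

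The other 10 motifs that are not forkhead words did not pass this test in either direction. The CCAAT box, bound by NF-Y, was at 22.9% of centres and 23.3% of flanks. The words of factors of the palatal mesenchyme were also near their flanks: RUNX (TGTGGTT before A or T) at 1.61% against 2.41%, SOX (AACAAAG, or T for its last A) at 7.44% against 8.05%, the E-box CATCTG at 63 centres against 67 flanks, TEAD (GGAATG) at 10.7% against 11.5% and homeobox (TAATTA) at 3.62% against 4.63%. In distal centres the RUNX word was at 4.19%, the SOX word at 12.98%, the E-box at 19.7%, the TEAD word at 11.6% and the homeobox word at 7.34%. CRE (TGACGTCA, 5 centres against 2), YY1 (AANATGGC, 19 against 14) and AP-1 (TGANTCA, 25 against 30) were infrequent. The word AGATAAG, bound by GATA proteins, was at 9 centres against 17 flanks.

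Without regard to GC content, GC-poor promoter peaks stood between GC-rich promoter peaks and distal peaks in the share with a forkhead site. GC-rich promoter peaks held RTAAAYA in 86 of 1860 cases (4.62%, 3.76 to 5.68), which is 24.95 percentage points below the GC-poor ones (Newcombe 95% interval 21.0 to 29.2). The backward word also differed between these groups, by 14.15 points (11.3 to 17.5). The groups were split by the GC content of the same central window in which these words were counted. Mean GC fractions there were 0.499 in GC-poor and 0.732 in GC-rich promoter peaks. The split itself thus favours AT-rich words in the GC-poor group, and this comparison cannot separate forkhead sites from base composition. Distal peaks held RTAAAYA in 51.5% of cases. Within GC bins of 5 percentage points, the odds of a forkhead site in GC-poor promoter peaks were 0.5802 times those in distal peaks of GC content below 60% (Mantel-Haenszel, 95% interval 0.47 to 0.716). For GTAAACA the odds ratio was 0.614 (0.457 to 0.823) and for ATAAACA 0.388 (0.279 to 0.538), while the interval for the backward word included 1 (0.948, 0.722 to 1.25).

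Promoter sequence without a peak held fewer sites at the same GC content. Starting from the 5′-most TSS of each gene with no peak centre within 2 kb, 160171 windows of 200 bp had a GC content below 60%, and 14.8% of them held RTAAAYA. Within GC bins the odds in GC-poor promoter peaks were 4.09 times as high (Mantel-Haenszel, 95% interval 3.32 to 5.03), and for GTAAACA 6.15 times as high (4.64 to 8.14). The backward word was at 1.38 times the odds (1.07 to 1.79). Among peaks with 55 to under 60% GC, 18.6% of GC-poor promoter peaks, 29.7% of distal peaks and 3.36% of windows without a peak held a site. Below 40% GC the shares were 47.2%, 64.4% and 30.9%. The flanks of the same GC-poor promoter peaks, whatever their own GC content, held a site in 7.55% of cases where the centre was below 40% GC and in 18.6% where it was 55 to under 60%. In that highest bin centres and flanks thus held a site equally often, in 30 of 161 cases each. These intervals cover counting error only.

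**Figure D1:**
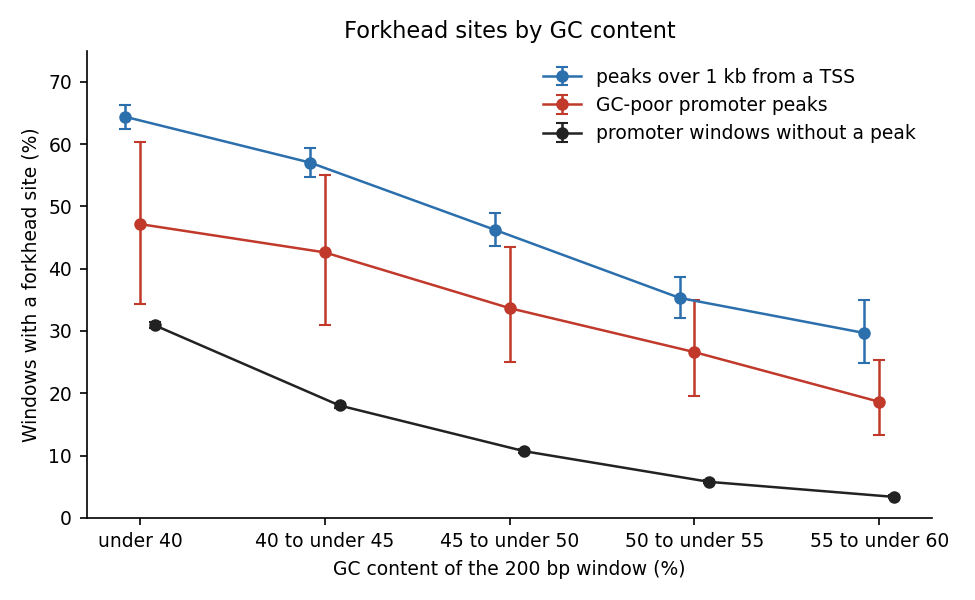
Share of 200 bp windows with a forkhead site (vertical axis, %) in bins of GC content (horizontal axis, %), with 95% Wilson intervals. GC-poor promoter peaks lie between distal peaks and promoter windows without a peak in each of the 5 bins, falling from 47.2% to 18.6%.

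Peaks with a forkhead site carried more tags and higher scores. The 147 GC-poor promoter peaks with a site had a median of 35 ChIP tags (quartiles 23 and 60) and a median score of 30, and the 350 without had 23 tags (18 and 33) and a score of 21. The score is the authors' peak caller score, and these medians are given without a test, since peaks of 1 library are not replicates. Input tags were higher too, with medians of 2 with a site and 1 without. Mean tags per kb with and without a site were 77.8 and 52.8 for ChIP and 4.03 and 2.71 for input. Fold over input, which had to reach 10 for a peak to be called, differed little, with medians of 13.6 and 12.9. The share with a site was 14.1% (9.08 to 21.1) for peaks scored 17 or 18, 22.4% at 19 to 23, 32.2% at 24 to 33 and 51.7% (42.8 to 60.4) at 34 to 109. Mean GC content of the GC-poor promoter peaks lay between 49.7% and 50.4% in these score bands. In GC-rich promoter peaks of the same bands the share was 0.386%, 0.893%, 2.39% and 14.4%, and in distal peaks 36.7%, 43.8%, 53.7% and 66.8%.

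**Figure D2:**
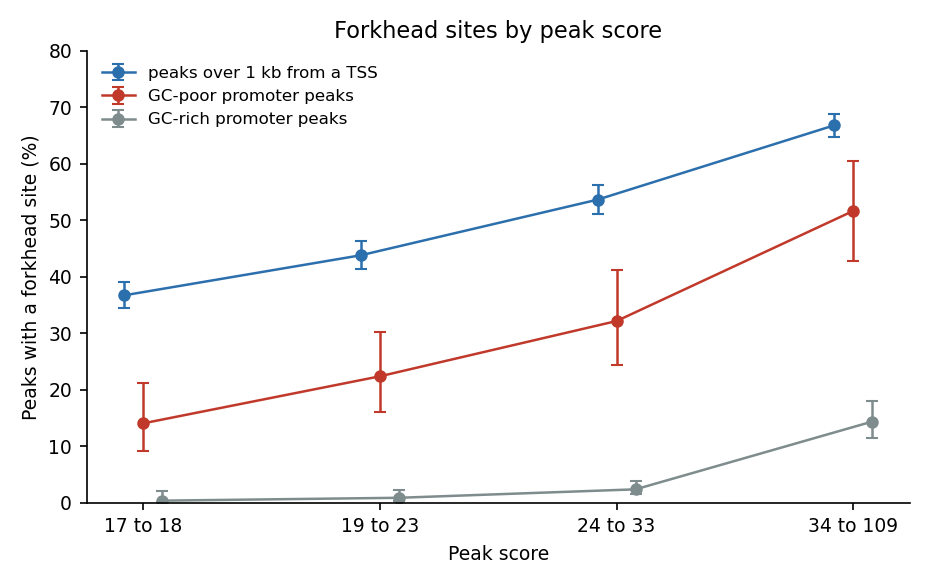
Share of peaks with a forkhead site (vertical axis, %) in 4 bands of the deposited score (horizontal axis), with 95% Wilson intervals. The share is higher in the highest than in the lowest band in each group, from 14.1% to 51.7% in GC-poor promoter peaks.

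Within the GC-poor promoter peaks the sites showed no preferred strand and were only somewhat more numerous toward the peak centre. Of 204 sites in the central 200 bp, 102 lay on the strand of the gene and 102 on the other (50%, 43.2 to 56.8). In 50 bp steps across the 400 bp around the centre, the number of sites ran from 34 and 38 at the 2 outer ends to 59 just left of the centre and 52 just right of it. These counts include tandem matches of single peaks, such as the 11 at Rnf7, and were not compared with an even spread. Only 40 of the 204 sites lay within 25 bp of the centre. The site was upstream of the TSS in 54.9% of cases (48.0 to 61.6). The 204 sites came from 147 peaks, and tandem matches of a peak mostly share strand and side. The intervals for strand and for upstream position treat sites as independent, so they are too narrow. By word, ATAAATA made up 68 of the sites in 38 peaks, GTAAACA 61 in 57 peaks, ATAAACA 50 in 42 peaks and GTAAATA 25 in 24 peaks. A single site was found in 115 peaks, 2 sites in 25 and at least 4 in 7.

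Signal in the GC-poor promoter peaks was modest. The median peak held 27 ChIP tags (quartiles 19 and 42, lowest 14, highest 259) and 1 input tag (lowest 0, highest 18) and was 500 bp wide. Its fold over input was 12.9, and the folds ran from 10.03 to 44.4. Peaks of 20 ChIP tags or fewer numbered 174 of the 497 (35.01%), against 19.1% of GC-rich promoter peaks, a difference of 15.9 points (Newcombe 95% interval 11.5 to 20.6), and 31.3% of distal peaks, a difference of 3.74 points whose interval included 0 (-0.475 to 8.17). At most 1 input tag was counted in 295 (59.4%), so the fold of a typical peak is imprecise. A score of at least 30 was reached by 160 (32.2%), against 38.5% of all peaks, 39.3% of GC-rich promoter peaks and 38.8% of distal peaks. The differences were -7.11 points (-11.7 to -2.34) and -6.58 points (-10.7 to -2.20). Among the 916 highest-scoring peaks of the list were 33 GC-poor promoter peaks (6.64%) and 44 GC-rich ones (2.37%), a difference of 4.27 points (2.24 to 6.88), and 12.3% of distal peaks. The GC-poor group therefore had larger shares than the GC-rich group both of peaks with few tags and of peaks at the top of the list. Per kb of peak, median ChIP tags were 47.1, 54 and 56 in GC-poor promoter, GC-rich promoter and distal peaks, and median input tags were 2, 2.18 and 2.51.

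**Figure D3:**
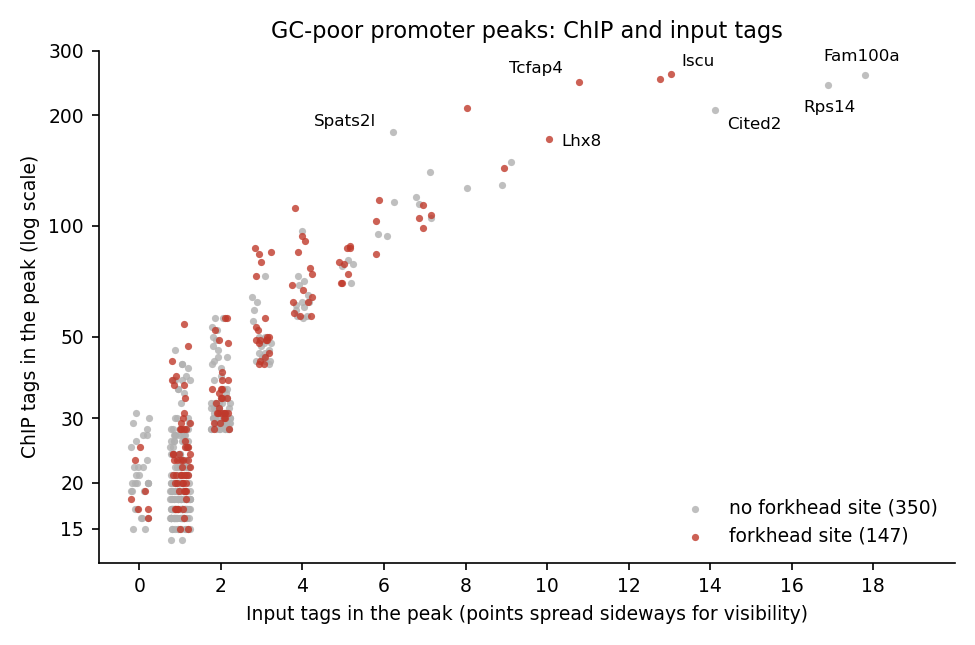
ChIP tags (vertical axis, log scale) against input tags (horizontal axis) in each of the 497 GC-poor promoter peaks, coloured by presence of a forkhead site. The lower edge of the points follows the 10-fold excess over input that the peak calling required, and the peaks at Iscu and Fam100a have the most tags, 259 and 257.

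Just below the GC limit, the 71 promoter peaks of 58 to under 60% GC had a median score of 24 and a site in 13 cases. Just above it, the 70 peaks of 60 to under 62% GC had a median score of 22 and a site in 8 cases. The median ratio of observed to expected CpG dinucleotides at the centre was 0.488 in GC-poor promoter peaks, 0.913 in GC-rich promoter peaks and 0.232 in distal peaks. In 306 of the GC-poor promoter peaks (61.6%) it was below 0.60, so CpG depletion went with low GC content in most of them but not in all.

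GC-poor promoter peaks lay on both sides of the nearest TSS. Centres were upstream in 236 of 497 cases (47.5%, 43.1 to 51.9), against 28.7% of GC-rich promoter peaks (difference 18.8 points, 14.0 to 23.7) and 32.6% of all promoter peaks. Relative to the 5′-most TSS of the gene, at any distance, 38.6% were upstream. GC-poor promoter peaks were also farther from the nearest TSS, at a median of 372 bp against 180 bp for GC-rich ones. Within 200 bp of the TSS lay 27.2% of GC-poor and 54.6% of GC-rich promoter peaks (difference -27.5 points, -31.8 to -22.8). The called region covered the TSS in 199 GC-poor cases (40.04%) and 71.6% of GC-rich cases.

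GC-poor sequence itself is unevenly spread around start sites. Of 200 bp windows at the 5′-most TSS of all genes, 49.9% were GC-poor in the first 200 bp downstream and 96.3% at 800 to 1000 bp upstream. Of all GC-poor windows, 54.9% lay upstream, 14.4% within 200 bp and 46.6% over 600 bp from it. Distances above are to the nearest of all starts, so they were also taken to the 5′-most TSS alone, which had 405 of the peaks within 1 kb. Of these, 24.7% (20.7 to 29.1) lay within 200 bp of it, 28.4% (24.2 to 33.0) over 600 bp from it and 47.4% upstream. By position, the share with a forkhead site ran from 21.7% at 200 to 400 bp downstream to 42% at 400 to 600 bp upstream, where 21 of 50 peaks held one.

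**Figure D4:**
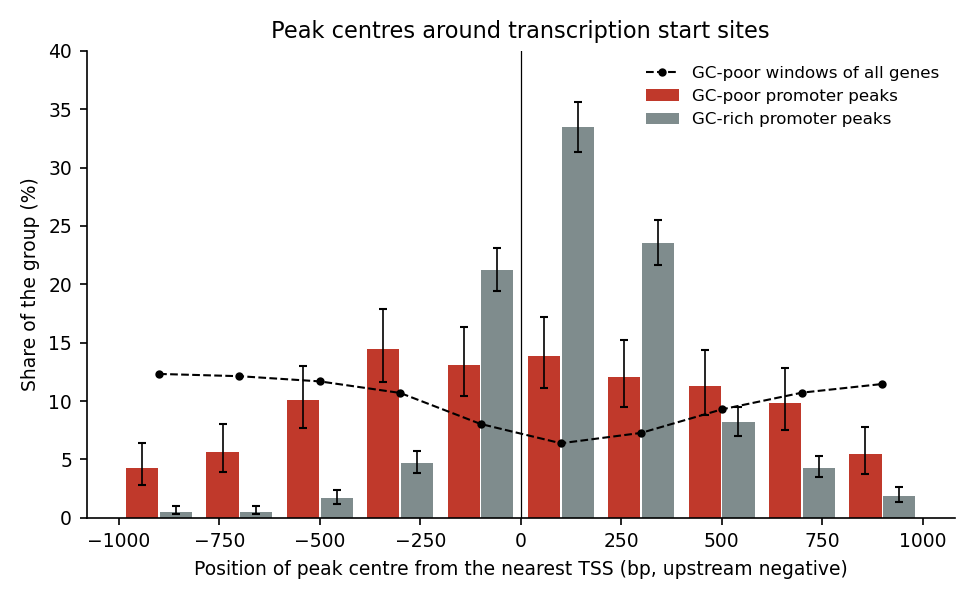
Position of peak centres relative to the nearest TSS (horizontal axis, bp, in steps of 200 bp) as a share of each group (vertical axis, %), with 95% Wilson intervals, and the share of GC-poor windows around the 5′-most TSS of all genes (dashed). GC-poor promoter peaks are spread over both sides, with 13.1% and 13.9% in the bins on either side of the TSS, and GC-rich ones gather from 0 to 200 bp downstream (33.4%).

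By annotation, 238 centres (47.9%) were in introns, 156 (31.4%) outside any transcript, 69 (13.9%) in untranslated parts of exons, 20 in non-coding exons and 14 in coding exons. Coding exons held 2.82% of GC-poor and 17.4% of GC-rich promoter peaks. A forkhead site was present in 32.7% of the centres outside transcripts, 30.7% of intronic ones and 26.1% of those in untranslated exon parts.

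The start sites next to these peaks were of both kinds. For 275 peaks (55.3%, 50.9 to 59.6) the 200 bp around the nearest TSS had at least 60% GC, so the peak lay beside a GC-rich start, and 222 peaks had a GC-poor start. GC-poor starts made up 44.7% here, against 6.45% of GC-rich promoter peaks, 14.5% of all promoter peaks and 52% of the 5′-most starts of all 22378 protein-coding genes. Peaks beside a GC-rich start were farther from it, at a median of 458 bp against 238.5 bp. The shares with a forkhead site were 26.9% (22.0 to 32.4) and 32.9% (27.04 to 39.3), a difference of -5.97 points whose interval included 0 (-14.1 to 2.07), and within GC bins the odds ratio was 0.845 (0.565 to 1.26). Median scores were 22 and 24. The nearest TSS was the 5′-most one of its gene in 66.9% of peaks at GC-rich starts and in 58.6% of those at GC-poor starts.

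**Figure D5:**
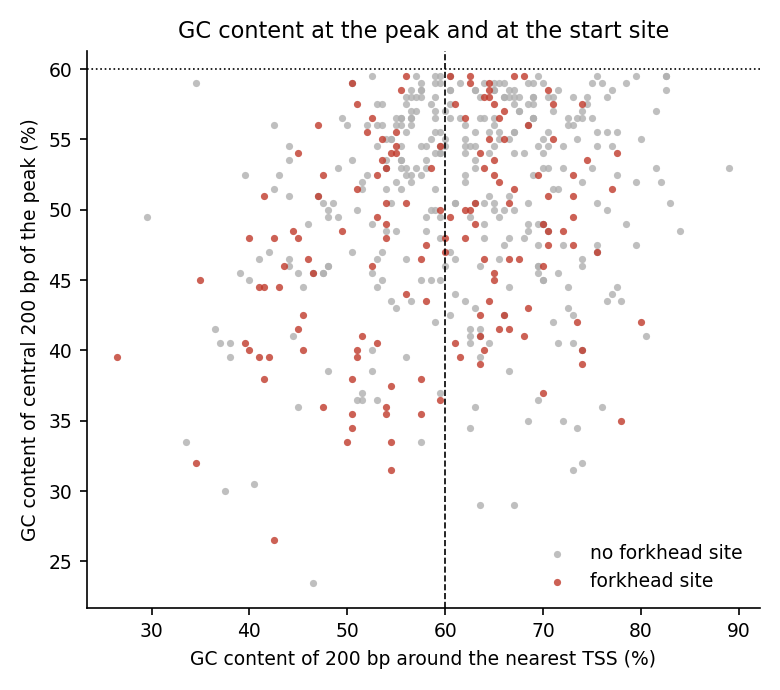
GC content of the central 200 bp of each GC-poor promoter peak (vertical axis, %) against that of the 200 bp around its nearest TSS (horizontal axis, %), coloured by presence of a forkhead site. The dashed line at 60% divides 275 peaks beside GC-rich starts from 222 at GC-poor starts, and peaks with a site occur on both sides.

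The 497 peaks had 488 nearest genes, 2.19% of 22238 protein-coding gene symbols, whereas GC-rich promoter peaks had 1841 (8.28%). Both kinds of promoter peak were present at 23 of the 488 genes. A further peak 1 to 100 kb away was assigned to 143 of them (29.3%), to 25.5% of the genes of GC-rich promoter peaks and to 14.4% of all genes. The difference between the promoter groups was 3.83 points, and its interval included 0 (-0.542 to 8.44). The TSS of another gene on the opposite strand lay within 1 kb of the nearest TSS for 56 peaks (11.3%). For GC-rich promoter peaks the share was 8.23%, a difference of 3.04 points (0.218 to 6.34).

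Among the highest-scoring GC-poor promoter peaks were those of Tcfap4, 4930455F23Rik, Lhx8, AW146154, Ambn, Bcas3, Tspan4, Cited2 and Taf4a, and of these 9 only the Cited2 peak held no forkhead site. Tcfap4 led with a score of 109, 247 ChIP tags against 11 input tags and a 16.1-fold excess (95% interval 8.83 to 32.6), at chr16:4559507-4560382. Lhx8 had a score of 99, 172 tags against 10 (12.3-fold, 6.54 to 26.2), at chr3:153993568-153994708, in sequence of 33.5% GC centred 523 bp upstream of the TSS. Lhx8 also had 6 further assigned peaks. Ambn had 99 tags against 7 (10.1-fold, 4.74 to 25.9). Cited2, which encodes a transactivator that binds CBP and p300, had 207 tags against 14 over a region of 1687 bp. Taf4a had 84 tags against 6. The intervals of these folds overlap one another, so the folds do not rank these genes.

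The peaks with the most tags were partly others. Iscu, a scaffold gene of iron-sulfur cluster assembly, had 259 ChIP tags against 13 input tags but a score of 21, over 1753 bp. Fam100a had 257 tags against 18 over 1773 bp, Fam53c 252 against 13, Rps14 242 against 17, 2010109A12Rik 210 against 8, Spats2l 180 against 6 and Cyp2j9 149 against 9. A forkhead site was absent from the centres at Fam100a, Rps14, Spats2l and Cyp2j9.

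At least 2 GC-poor promoter peaks were found at 8 genes, and the 5 with the highest summed scores were Fnbp1, Spats2l, Frzb, Camta1 and Foxp2. Frzb had peaks on both sides of its only annotated TSS, 553 bp upstream (42 tags against 3) and 569 bp downstream (49 against 3), each with a forkhead site, and 6 further peaks within 100 kb. Fnbp1, a formin-binding protein gene, had peaks at 2 internal starts, with 57 tags against 4 and 54 against 1. Camta1, which encodes a calmodulin-binding transcription activator, had 3 peaks at separate starts and no site in any of them. Foxp2, itself a forkhead gene, had 73 tags against 4 at an internal start. That peak had no site in the central 200 bp, but GTAAACA lay 125 bp from its centre. The other Foxp2 peak had 31 tags against 2, was 857 bp from the 5′-most start and held GTAAACA.

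Of regulators of palate development, 6 of 41 genes (14.6%) had a GC-poor promoter peak, beside 2.19% of all genes. A GC-rich promoter peak was at 14 of the 41 (34.1%), beside 8.28% of all genes, so both groups exceeded their shares of all genes. The 6 with a GC-poor promoter peak were Lhx8, Meis2, Meox2, Shox2, Tbx1 and Tcfap2a, all of them transcription factor genes. Meis2, a TALE homeobox gene, had 36 tags against 2 at one internal start, with GTAAACA, and 27 against 1 at another without a site. The homeobox gene Meox2 had 74 tags against 4 centred 93 bp downstream of its TSS, and Shox2 38 against 1, both with a forkhead site. Tbx1 and Tcfap2a had 28 tags against 2 and 20 against 1, without a site.

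Among signalling genes the shares lay between 2.38% for Wnt and 12.5% for FGF genes, beside 2.19% of all genes, and each rested on 1 to 3 genes. Of 20 hedgehog genes only Ptch1, the hedgehog receptor gene, had such a peak, with 129 tags against 9 (10.3-fold, 5.24 to 23.0) and no forkhead site, 305 bp downstream of an internal start of 82.5% GC. Of 24 FGF genes 3 did (12.5%): the feedback inhibitor gene Spry4 with 19 tags against 1, the ETS factor gene Etv1 with 16 against 1 and the ligand gene Fgf9 with 16 against 1, of which the Etv1 peak held GTAAACA. Of 34 TGF-beta and BMP genes, Smad5 (56 tags against 4) and Tgfb3, a ligand gene needed for palatal fusion (46 against 1), had one without a site. In the Smad5 peak ATAAACA lay outside the central 200 bp, 180 bp from the centre. Frzb was the one of 42 Wnt genes, and Foxp2 and Foxa3 (17 against 1) were the 2 of 42 forkhead genes.

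Of 48 extracellular matrix and adhesion genes 4 had a GC-poor promoter peak (8.33%), beside 2.19% of all genes. Mmp2 had 58 tags against 4 and 2 GTAAACA sites, and the fibrillar collagen gene Col5a2 (42 against 1), the fibrillin gene Fbn2 (31 against 2) and Col1a1 (17 against 1) had no site. Of 20 osteogenic genes Col1a1 alone had one. Of 44 genes of chromatin and general transcription 3 did (6.82%): Taf4a and the Polycomb genes Ezh2 (23 against 1) and Suz12 (20 against 1), all with a site. Of 33 cell cycle genes Mycn (22 against 1) and Ccnd2 (15 against 1) had one (6.06%), and of 39 genes of DNA repair and replication Rpa1 (49 against 3, 2 sites) and Msh6 (17 against 1) did (5.13%). Rps14 was the only one of 69 ribosomal protein genes (1.45%), and none of 42 splicing and export genes had one, counts that are near the 2.19% of all genes. GC-rich promoter peaks were at 10 of the 42 splicing and export genes (23.8%), beside 8.28% of all genes. Their share was also above 8.28% in most other lists, from 11.6% of ribosomal protein genes to 34.1% of palate regulators. Below it were DNA repair and replication (7.69%) and the lists of liver genes and cell type markers (at most 5%). Foxf2 itself, Foxf1a, Fgf18, Osr2, Pax9, Msx1 and Twist1 had no GC-poor promoter peak. These lists were described by their counts and not tested, and in 6 of the 19 no gene had a GC-poor promoter peak.

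Of 21 endothelial markers 2 had such a peak, beside 2.19% of all genes. They were Esam (43 tags against 3) and Erg (120 against 7 over 1232 bp, score 17), and neither peak held a forkhead site. None of 25 epithelial, 20 neural, 18 muscle or 20 blood and macrophage markers had one, and none of 20 genes of liver, a tissue that was not dissected. Chemoreceptor genes, which are tissue-restricted, were nearly empty of such peaks, with 1 of 1113 olfactory receptor genes (Olfr469, 36 tags against 2, with 2 GTAAACA sites) and 0 of 327 vomeronasal receptor genes. GC-rich promoter peaks were at 0 of the 1113 and 0 of the 327, so this was shared by both promoter groups. Among zinc finger genes named Zfp, 13 of 367 had a GC-poor promoter peak (3.54%), and among solute carriers 10 of 354 (2.82%). GC-rich promoter peaks were at 10.9% and 7.06% of these genes, beside 8.28% of all genes.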

How the data were processed

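Reads were aligned to mm9, and Bowtie 1.0.0, SAMtools 0.1.19 and HOMER were named, per the submitters' processing notes. The version of HOMER was not given in the sources used here. The authors ran findPeaks in histone style on 1 ChIP and 1 input library, per the file headers, with a fragment length of 112 bp, at most 1 tag per position and a 10-fold excess over input and over the surrounding 10000 bp. Peaks were called once, on unreplicated libraries.

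The deposited signal was ChIP tags per 10000000, per the file headers, from which whole tags were recovered (each within 0.134, tolerance 0.15). These summed to 397999, the header's total in peaks. Input coverage was deposited as unscaled tags, with 0.5 for none. The deposited score, the deposited fold and the deposited p-value column are the peak caller's. The p-value and the clonal fold entered no result.

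Starts came from GENCODE vM1 on NCBIM37, the assembly of mm9, whose chromosome names match those of the peaks. Peak positions are printed as deposited, and other coordinates are 1-based. Shares carry Wilson intervals, differences Newcombe intervals, odds ratios Mantel-Haenszel estimates over GC bins, and folds exact conditional intervals (all 95%). Motifs were searched on both strands with exact McNemar tests against flanks, Benjamini-Hochberg over 19 motifs. The functions were tested on simulated data. Intervals cover counting error only, because neither library had a replicate. Regions that share a promoter are also not independent of each other.

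Members and the 19 gene lists (622 of 625 entries matched a gene) were chosen with earlier results of these data known. The comparison with promoter windows without a peak and the distances to the 5′-most TSS within 1 kb were added after seeing the data. Named genes were those of the 10 highest scores, the 10 highest tag numbers, the 5 peaks with most sites, the 5 top genes with at least 2 peaks, up to 4 per list and a fixed set of palate genes. Tbx1, Tcfap2a and Olfr469 were named after their values were seen. A gene that the rule names is not reported here. Python 3.11.15, SciPy 1.17.1 and pandas 2.3.3 were used. No separate input file was used.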

Additional observations from a re-analysis of the deposited data

How the results depend on the processing

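Of 44 alternatives that did not use the backward control word, 37 kept direction and side of the threshold, kept a count of peaks within 1.5 times, or kept a share within its 95% interval. The number of peaks moved from 497 to 316 with a TSS within 0.5 kb, to 174 with a fold of at least 15 and to 160 with a score of at least 30. Centre over flank was 1.71 for the forkhead site and kept its direction in every alternative but the backward word, a control, for which it was reversed at 0.859 (exact McNemar p = 0.346). It was 2.59 with a score of at least 30 and 2.44 with a fold of at least 15. Against distal peaks, the odds ratio of the backward word was 0.948, with an interval that included 1, and under the other alternatives that of the forkhead site ran from 0.458 to 0.665. The upstream share moved from 47.5% to 43.1% with a GC limit of 65% and to 38.6% with the 5′-most TSS of the gene (47.4% over the peaks within 1 kb of it). The share beside a GC-rich start moved from 55.3% to 65.5% and 42.3% with limits of 55% and 65%, applied to peak and start alike. The odds against promoter windows without a peak were 7.78 with a score of at least 30. No paired analysis was possible because there is 1 ChIP and 1 input library. Depth limits the fold of single peaks: at Rnf7, with 1 input tag, its interval ran from 2.68 to 679.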
